A study of Arabidopsis thaliana with 24 samples.

Results

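In Arabidopsis thaliana seedlings carrying ALC::TOC1, 88 of 22746 probe sets stood apart from wild type in every setting measured, with or without the inducer and in both light regimes. They were chosen by their measured genotype difference, as the probe sets whose mean log2 value differed from Col-0 in the same direction, by at least 0.7 log2 units, in each of 4 settings of 3 arrays per genotype. Of the 88, 30 were higher and 58 were lower in ALC::TOC1. The deposited probe annotation names 1 gene for 19 of the higher and 32 of the lower probe sets, several genes for 0 and 3, and no gene for 11 and 23, and the last 2 kinds are given here by probe set ID only. Because the genotype differences themselves chose these probe sets, they are given below as a description, with a standard error from limma and with no test. In these 88 only the responses to ethanol and to the light regime, averaged over both genotypes, were tested. These are independent of the choice only as far as both genotypes spread alike, and over these probe sets Col-0 spread more. For listed genes outside the 88, limma calls of the mean genotype difference are also given.

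The study measured transcripts of whole seedlings on 24 Affymetrix ATH1 arrays, with 3 arrays in each of 8 groups. The ALC::TOC1 groups hold a transgene that lets ethanol switch on TOC1, and the Col-0 groups are the wild type of that ecotype. Seedlings were 13 days old, had been entrained in cycles of 12 h light and 12 h dark, and then either went to constant light (LL) or remained in the cycles (LD). For 3 h they lay in liquid medium with 2.5% ethanol, or without ethanol as the mock, and were harvested at ZT1, 1 h after lights-on or the matching time in LL. All 8 groups, mock and wild type included, also received the proteasome inhibitor MG132, which the labels give as 20 mM. The 4 settings are therefore LL with ethanol, LL mock, LD with ethanol and LD mock. No group carries the ethanol switch without TOC1 and the labels name a single ALC::TOC1 genotype, so the transgene, its insertion site and any other property of that line cannot be told apart. Separate growth of the replicates is not stated, so p-values measure only the spread between samples. The probe set of TOC1 itself was not analysed here.

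In the ALC system a fungal transcription factor, AlcR, activates its target promoter when ethanol is present, so a gene behind that promoter is meant to be silent without it. TOC1 is an evening-expressed pseudo-response regulator of the plant circadian clock that represses morning-expressed genes. Whole seedlings mix root, shoot and leaf cells, and on such tissue fewer cells of a type and less RNA per cell cannot be told apart.

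A pair of wild-type arrays stood apart over these probe sets and are named before the results. The second LD mock array of Col-0 was the one nearest to the ALC::TOC1 mean of its setting in 26 of the 30 higher and 44 of the 58 lower probe sets. The third LD ethanol array of Col-0 was nearest in 28 of the 30 and 36 of the 58. The same choice of probe sets made without both arrays gave 39 higher and 80 lower ones, among them 30 and 56 of those described here. Both arrays were picked for lying near ALC::TOC1 over these probe sets, so leaving them out favours larger counts. Over all probe sets the spread within a group was alike in the genotypes, with a median SD of 0.121 in ALC::TOC1 and 0.133 in Col-0. Over the 30 higher probe sets it was 0.145 in ALC::TOC1 and 0.291 in Col-0, and over the 58 lower ones 0.179 in ALC::TOC1 and 0.344 in Col-0. The GAPDH 3'/5' difference, a measure of RNA degradation, averaged 1.09 log2 units in ALC::TOC1 and 1.02 in Col-0 in LL with ethanol, and 1.06 in ALC::TOC1 and 1.45 in Col-0 in LL mock. In LD it was 0.83 in ALC::TOC1 and 1.13 in Col-0 with ethanol, and 0.89 in ALC::TOC1 and 1.09 in Col-0 under mock, with SDs of 0.05 to 0.39 in the 8 groups (n = 3 each). The same measure from ubiquitin was lower in ALC::TOC1 in every setting: with ethanol it was 0.95 in ALC::TOC1 and 1.06 in Col-0 in LL, and 0.96 in ALC::TOC1 and 1.15 in Col-0 in LD. Under mock it was 1.005 in ALC::TOC1 and 1.22 in Col-0 in LL, and 0.94 in ALC::TOC1 and 1.03 in Col-0 in LD. From actin it was 4.14 in ALC::TOC1 and 4.20 in Col-0 in LL with ethanol, 4.06 in ALC::TOC1 and 4.61 in Col-0 in LL mock, 4.54 in ALC::TOC1 and 4.74 in Col-0 in LD with ethanol, and 4.54 in ALC::TOC1 and 4.48 in Col-0 in LD mock. The SDs were 0.0072 to 0.21 for ubiquitin and 0.038 to 0.43 for actin (n = 3 each). With the GAPDH difference as a covariate the choice gave 20 higher and 47 lower probe sets, 16 and 40 of them shared. Leaf photosynthesis genes checked the tissue: RCA, the activase of the carbon-fixing enzyme Rubisco, averaged 13.14 log2 in ALC::TOC1 and 12.97 in Col-0. All 3 genes of that list of 12 with a named probe set were called higher in ALC::TOC1 by limma over the 4 settings, by 0.17 to 0.48, where 13.8% of all probe sets were called higher. The 5 root markers of 12 with a named probe set differed by -0.14 to 0.25, with 1 called higher. The part of these in the differences below was not tested.

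**Figure D1:**
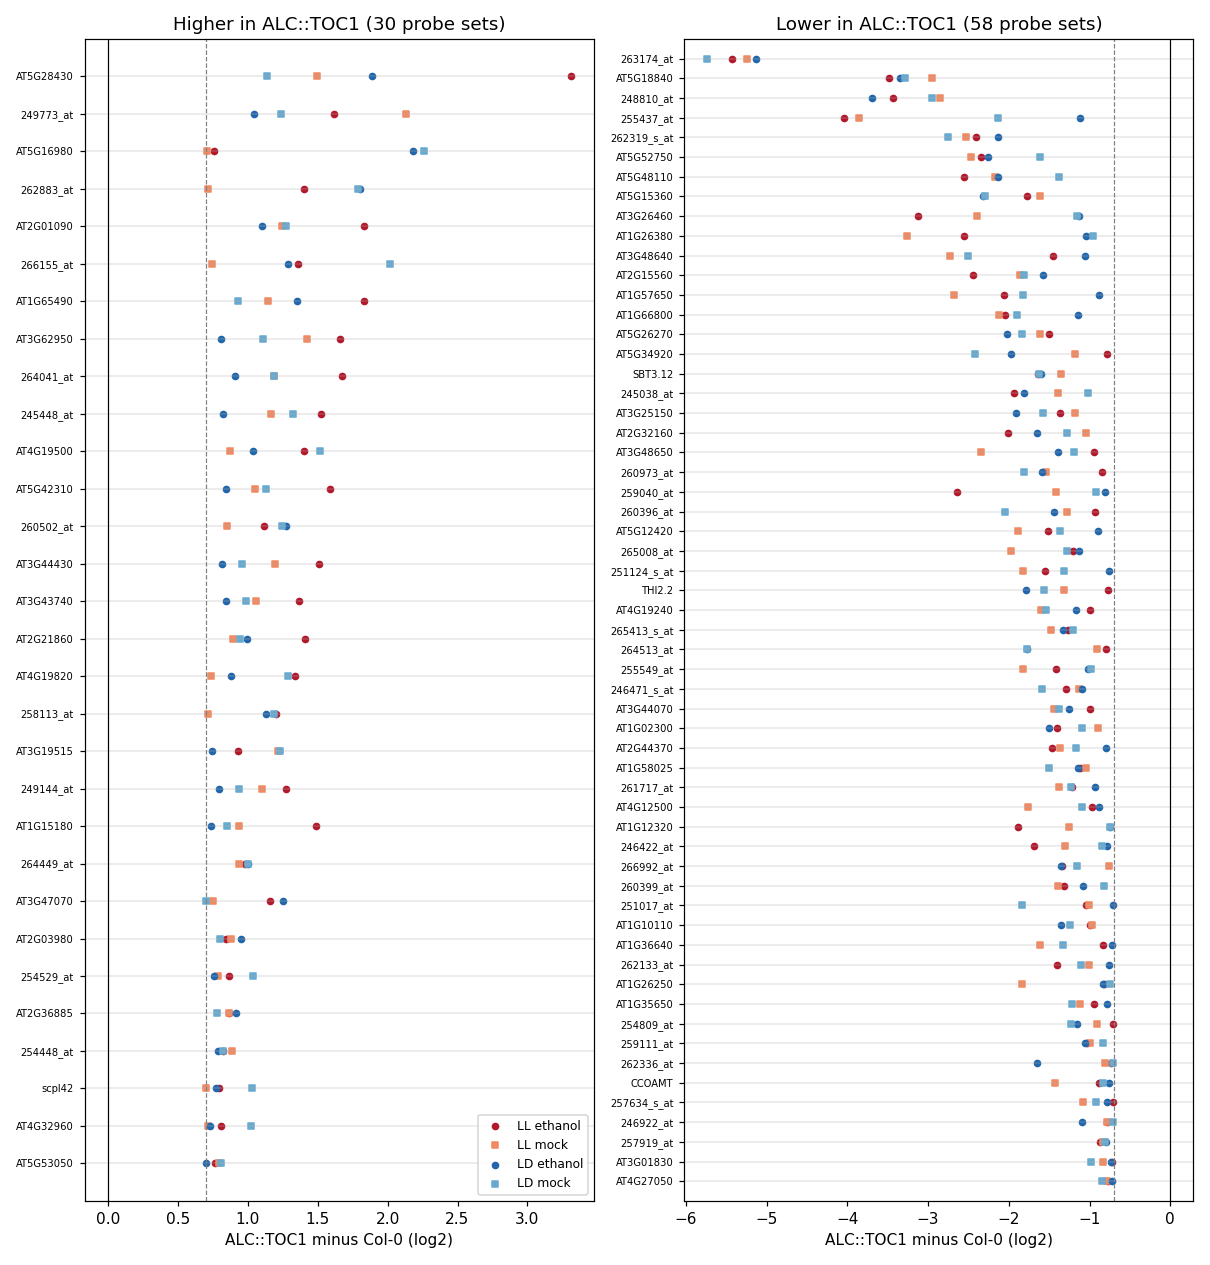
Difference between ALC::TOC1 and Col-0 (log2, horizontal axis) for each of the 30 higher (left) and 58 lower (right) probe sets, ordered by their mean difference. Each point is the difference of 2 means of 3 arrays in LL (red shades) or LD (blue shades), with ethanol (circles) or mock (squares), and the dashed line marks 0.7. The mean over the settings runs up to 1.96 on the left and down to -5.38 on the right.

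The lower set reached further than the higher one. Its mean difference over the 4 settings ran from -5.38 to -0.78 with a median of -1.32, while that of the higher set ran from 0.77 to 1.96 with a median of 1.06. The smallest of the 4 differences was at least 1 log2 unit in 21 of the 58 lower and 3 of the 30 higher probe sets, and at least 2 in 4 lower and 0 higher ones. For 31 of the 58 lower probe sets all 12 ALC::TOC1 arrays lay below all 12 Col-0 arrays, which 0.251% of all probe sets did. For 6 of the 30 higher ones all 12 ALC::TOC1 arrays lay above all 12 Col-0 arrays, against 0.176% of all. Without the 2 wild-type arrays named above these counts were 32 lower and 13 higher, against 0.321% and 0.382% of all probe sets. Leaving out arrays can only raise such counts, and these 2 were picked for lying nearest to ALC::TOC1. Within each of the 4 settings taken apart, the 3 arrays of each genotype did not overlap in 49 of the 58 lower probe sets (1.05% of all) and in 23 of the 30 higher ones (1.12% of all). The choice used these values, so the shares say nothing further about the probe sets.

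Single settings were far less selective. At least 0.7 higher in ALC::TOC1 were 3.84% of all probe sets in LL with ethanol, 0.919% in LL mock, 3.81% in LD with ethanol and 1.94% in LD mock. At least 0.7 lower were 5.55% in LL with ethanol, 2.19% in LL mock, 1.82% in LD with ethanol and 1.16% in LD mock. Both LL settings together left 141 higher and 345 lower probe sets, and both LD settings 233 higher and 115 lower. Of all probe sets, 2752 were higher in ALC::TOC1 in all 4 settings by any amount and 2985 were lower.

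Values just inside and just outside the threshold were close. The higher probe sets with the smallest qualifying difference were those of AT5G53050, a protein of the alpha/beta hydrolase superfamily, AT3G47070, which encodes a thylakoid phosphoprotein, and scpl42, a serine carboxypeptidase-like gene, each at 0.705. Just outside were MTP11, a manganese transporter, at 0.691, AT4G15680, a glutaredoxin, at 0.686, and AT1G66100, a thionin, at 0.646. Among the lower probe sets 246922_at, 257634_s_at and 251017_at had a smallest difference of 0.71 in size, without regard to sign. The probe set 259683_at, at 0.697, AT2G18210, at 0.691, and AT3G54150, at 0.685, fell short.

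The sugar transporter AT5G18840 showed the greatest difference of any lower probe set with 1 gene name. It belongs to the ERD6-like family of monosaccharide transporters, several of which are known to sit in the vacuolar membrane. In LL, AT5G18840 had log2 values of 6.07, 6.28 and 5.66 in ALC::TOC1 against 9.13, 9.42 and 9.93 in Col-0 with ethanol, and 4.55, 5.74 and 5.58 in ALC::TOC1 against 7.80, 8.62 and 8.30 in Col-0 under mock. Its LD values were 6.86, 6.36 and 6.80 in ALC::TOC1 against 10.40, 9.91 and 9.74 in Col-0 with ethanol, and 5.12, 4.79 and 5.25 in ALC::TOC1 against 7.93, 8.88 and 8.20 in Col-0 under mock. The highest of the 12 ALC::TOC1 arrays, 6.86, lay below the lowest of the 12 Col-0 arrays, 7.80, and the genotypes did not overlap in any setting. The mean difference was -3.27 ± 0.15 log2 units (SE, 12 arrays per genotype), which is 9.64-fold lower in ALC::TOC1. Of 19 ERD6-like genes 10 had a named probe set, and of these AT5G18840 alone was among the 51 members with 1 gene name. The other 9 differed by -0.40 to 0.25 on average, and limma called 1 of them lower (AT1G19450) and 1 higher (SFP2) at an adjusted p under 0.05, where 13.1% of all probe sets were called lower and 13.8% higher.

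Lower genes that encode enzymes of small-molecule metabolism, likewise grouped only for description, included AT5G48110, of the terpene synthase family, AT1G66800, related to cinnamyl alcohol dehydrogenases, AT2G32160, a methyltransferase, AT5G12420, of the wax ester synthase family, and CCOAMT, a caffeoyl-CoA O-methyltransferase. In LL, AT5G48110 had log2 values of 5.72, 5.33 and 5.77 in ALC::TOC1 against 8.21, 7.83 and 8.44 in Col-0 with ethanol, and 6.16, 5.69 and 5.97 in ALC::TOC1 against 7.76, 8.16 and 8.39 in Col-0 under mock. The arrays in LD gave 5.29, 5.14 and 5.29 in ALC::TOC1 against 7.79, 7.04 and 7.30 in Col-0 with ethanol, and 6.07, 6.14 and 6.15 in ALC::TOC1 against 7.63, 7.49 and 7.39 in Col-0 under mock. No ALC::TOC1 array reached any Col-0 array, and the mean difference was -2.06 ± 0.09. AT1G66800 ran from 3.51 to 5.10 in ALC::TOC1 and from 5.67 to 7.54 in Col-0, without overlap, for a mean difference of -1.80 ± 0.11. AT2G32160 averaged -1.498 ± 0.12 and AT5G12420 -1.42 ± 0.14, and in both the genotypes overlapped over the 12 arrays but not within any setting. CCOAMT was the least separate of these, with a mean difference of -0.98 ± 0.22 and overlap in 2 of the 4 settings.

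The lower genes next described encode proteases, a cell wall protein and small secreted proteins, grouped by hand for description only. SBT3.12, a subtilisin-like serine protease, held nearly the same difference everywhere. In LL it had 3.60, 3.56 and 3.62 in ALC::TOC1 against 5.25, 5.19 and 5.23 in Col-0 with ethanol, and 3.90, 4.03 and 3.90 in ALC::TOC1 against 5.26, 5.21 and 5.43 in Col-0 under mock. In LD the values were 4.08, 3.95 and 3.95 in ALC::TOC1 against 5.38, 5.92 and 5.49 in Col-0 with ethanol, and 4.02, 3.94 and 3.95 in ALC::TOC1 against 5.84, 5.35 and 5.58 in Col-0 under mock. Its 4 differences spanned only 0.28 log2 units around -1.55 ± 0.06, and no ALC::TOC1 array overlapped Col-0. The ALC::TOC1 means of SBT3.12 were under 4 log2 units in every setting, so the size and steadiness of its difference are less certain. AT1G02300, a cathepsin B-like cysteine protease, averaged -1.22 ± 0.06, also without overlap. AT1G26250, an extensin-like proline-rich protein, averaged -1.06 ± 0.23, and AT4G12500, of the lipid transfer protein type, -1.18 ± 0.11. The ALC::TOC1 means of AT1G26250 were also under 4 log2 units in every setting, so the size of its difference is less certain too. THI2.2, a thionin, which is a small antimicrobial peptide, averaged -1.36 ± 0.11, with the genotypes apart in each setting but overlapping over the 12 arrays.

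AT3G48640 and AT3G48650 lie next to each other in the RefSeq annotation, with no gene between them, and both were lower. In LL, AT3G48640 had 3.29, 3.37 and 3.43 in ALC::TOC1 against 5.34, 5.18 and 3.93 in Col-0 with ethanol, and 3.997, 3.62 and 3.74 in ALC::TOC1 against 7.17, 6.33 and 6.03 in Col-0 under mock. In LD it had 3.34, 3.07 and 3.01 in ALC::TOC1 against 4.80, 4.14 and 3.66 in Col-0 with ethanol, and 3.79, 3.93 and 3.81 in ALC::TOC1 against 7.30, 5.29 and 6.44 in Col-0 under mock. All 12 ALC::TOC1 arrays were within 1 log2 unit of each other, at 3.01 to 3.997, while Col-0 ran 3.66 to 7.30, so the genotypes were apart in each setting but overlapped across settings. These ALC::TOC1 values are near the low end of the array's scale, so their narrow range and the size of the differences are less certain. The mean difference was -1.94 ± 0.20, at -1.45 in LL and -1.06 in LD with ethanol and at -2.72 in LL and -2.50 in LD under mock. For AT3G48650, annotated as a pseudogene, the values in LL were 3.80, 3.90 and 3.77 in ALC::TOC1 against 5.09, 5.29 and 3.93 in Col-0 with ethanol, and 4.09, 4.16 and 4.09 in ALC::TOC1 against 7.41, 6.18 and 5.78 in Col-0 under mock. Its LD values were 3.50, 3.76 and 4.06 in ALC::TOC1 against 6.17, 4.95 and 4.38 in Col-0 with ethanol, and 4.82, 5.44 and 5.20 in ALC::TOC1 against 7.15, 5.17 and 6.72 in Col-0 under mock. ALC::TOC1 lay below Col-0 in 3 settings and overlapped it in LD mock through the second Col-0 array, and the mean difference was -1.47 ± 0.23. The nearest other named and measured gene, AT3G48600, differed by -0.07 to 0.22 in single settings.

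The flavin-dependent oxidoreductase AT1G26380, of the berberine bridge enzyme-like family, had the widest wild-type spread of the 88. In LL its values were 3.80, 3.44 and 3.56 in ALC::TOC1 against 7.20, 7.43 and 3.82 in Col-0 with ethanol, and 5.40, 5.67 and 5.17 in ALC::TOC1 against 10.65, 8.60 and 6.76 in Col-0 under mock. The arrays in LD gave 5.08, 4.94 and 4.70 in ALC::TOC1 against 8.71, 5.12 and 4.01 in Col-0 with ethanol, and 6.19, 6.91 and 6.56 in ALC::TOC1 against 7.42, 7.28 and 7.83 in Col-0 under mock. Its Col-0 arrays of a single group differed by up to 4.70 log2 units, and those of ALC::TOC1 by less than 1, and the genotypes overlapped in LD with ethanol. The mean difference was -1.95 ± 0.48, and in 3 of the settings the SD of the Col-0 arrays was 1.95 to 2.46. AT1G26380 lies within 50 kb of AT1G26250, with 13 annotated genes between them. In LL, AT1G26250 had 3.31, 3.33 and 3.44 in ALC::TOC1 against 4.73, 4.39 and 3.42 in Col-0 with ethanol, and 3.53, 3.02 and 3.44 in ALC::TOC1 against 6.53, 5.17 and 3.81 in Col-0 under mock. In LD the values were 3.68, 3.42 and 4.07 in ALC::TOC1 against 5.42, 4.11 and 4.15 in Col-0 with ethanol, and 3.39, 3.51 and 3.32 in ALC::TOC1 against 3.84, 4.22 and 4.39 in Col-0 under mock. In Col-0 with LL and ethanol both genes were lowest in the third array, and in Col-0 LL mock both were highest in the first, as were AT3G48640 and AT3G48650. This order was noticed after the values were seen. AT1G26250 overlapped between the genotypes in LL with ethanol and was apart in the other settings. Measured genes between the pair, 6 in all, differed by -0.37 to 0.43 in single settings. Of the 4 measured genes just beyond AT1G26380, AT1G26390 had -0.77, -0.97, 0.65 and -0.01 and AT1G26420 -0.31, -1.84, -0.35 and -0.55 in LL ethanol, LL mock, LD ethanol and LD mock. Between those, AT1G26400 had 0.16, -0.03, -0.22 and -0.02 and AT1G26410 -0.06, -0.47, 0.05 and -0.07 in the same settings. Of 704 combinations of a probe set and a group, 10 had an SD over 1, all 10 in Col-0 and 3 of them in AT1G26380.

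**Figure D2:**
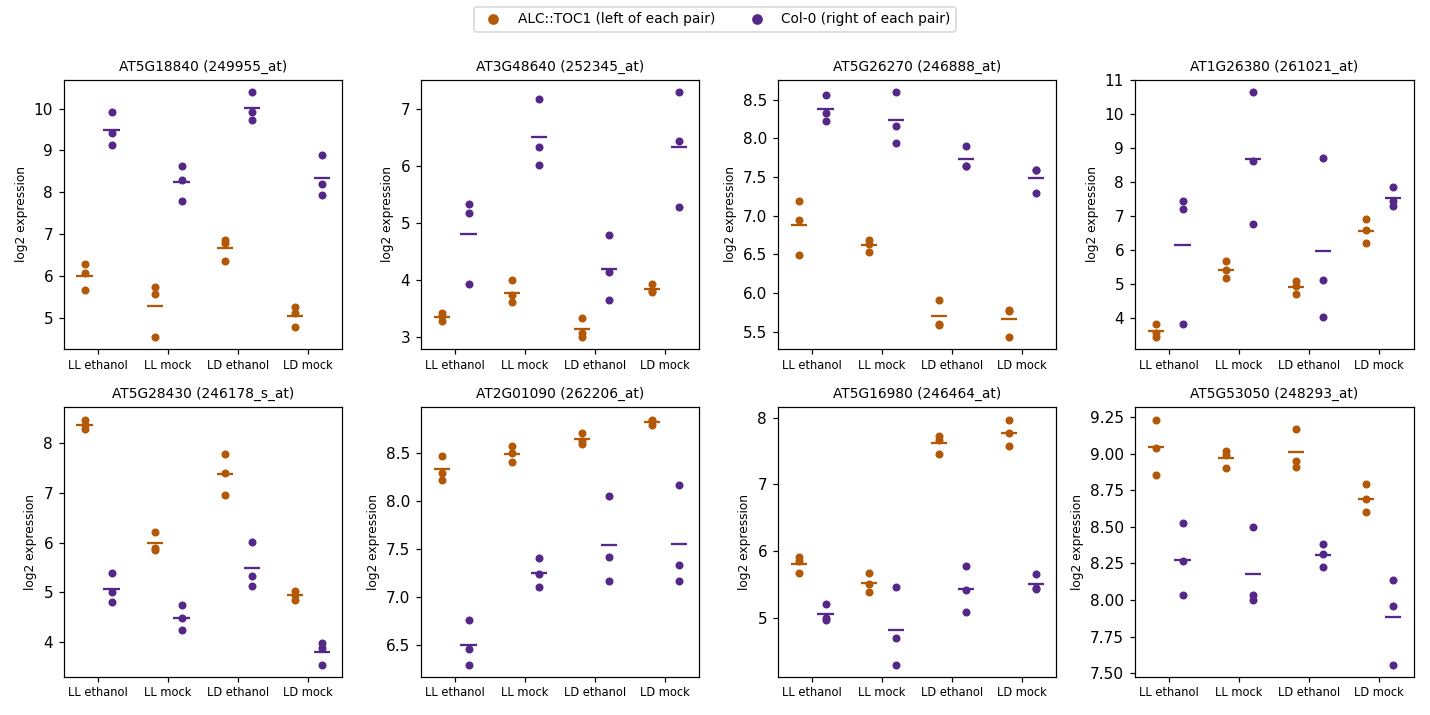
Log2 expression (vertical axis) of 8 genes on each of the 24 arrays, with ALC::TOC1 (orange) left of Col-0 (purple) in LL ethanol, LL mock, LD ethanol and LD mock. Points are single arrays and bars the means of 3, and each panel has its own vertical scale. AT5G18840 and AT5G26270 separate the genotypes over all 12 arrays each, while the Col-0 arrays of AT1G26380 scatter over several log2 units.

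Several other lower genes are known by the domains they encode. AT5G52750, with a heavy metal-associated domain, averaged -2.17 ± 0.17. Its LL values were 3.90, 4.08 and 4.27 in ALC::TOC1 against 6.61, 6.77 and 5.90 in Col-0 with ethanol, and 4.02, 4.04 and 4.09 in ALC::TOC1 against 7.07, 6.21 and 6.30 in Col-0 under mock. In LD it had 5.14, 6.04 and 5.52 in ALC::TOC1 against 7.58, 7.99 and 7.92 in Col-0 with ethanol, and 5.57, 6.47 and 5.47 in ALC::TOC1 against 8.15, 6.48 and 7.72 in Col-0 under mock. Within a setting the genotypes did not overlap, although in LD mock the second arrays all but met, at 6.47 in ALC::TOC1 and 6.48 in Col-0. AT3G25150, with an NTF2-type and an RNA recognition domain, averaged -1.51 ± 0.06, and AT1G58025, with a bromodomain, -1.20 ± 0.11, neither with any overlap. The F-box genes, whose products choose proteins for degradation, were AT1G10110 at -1.14 ± 0.08 and AT4G27050 at -0.78 ± 0.06, again without overlap. AT1G57650, of the NB-ARC type found in immune receptors, averaged -1.86 ± 0.15, and AT3G01830, a calmodulin-like calcium-binding protein, -0.82 ± 0.17.

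For AT3G26460, a major latex protein-like gene, the gap between the genotypes was wider in LL than in LD. In LL its values were 4.47, 4.31 and 4.55 in ALC::TOC1 against 7.42, 7.36 and 7.94 in Col-0 with ethanol, and 4.61, 4.95 and 4.66 in ALC::TOC1 against 7.14, 7.18 and 7.08 in Col-0 under mock. Its LD values were 5.11, 5.57 and 5.01 in ALC::TOC1 against 6.63, 5.75 and 6.72 in Col-0 with ethanol, and 4.40, 4.20 and 4.90 in ALC::TOC1 against 5.57, 6.07 and 5.32 in Col-0 under mock. The genotypes did not overlap in any setting, and the difference was -2.76 on average in LL and -1.14 in LD.

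The lower genes AT5G26270, AT5G15360, AT2G15560, AT3G44070 and AT4G19240 are given without a role. In LL, AT5G26270 had log2 values of 6.49, 6.94 and 7.18 in ALC::TOC1 against 8.33, 8.22 and 8.56 in Col-0 with ethanol, and 6.64, 6.68 and 6.53 in ALC::TOC1 against 7.94, 8.16 and 8.60 in Col-0 under mock. The arrays in LD gave 5.59, 5.60 and 5.91 in ALC::TOC1 against 7.64, 7.90 and 7.63 in Col-0 with ethanol, and 5.77, 5.76 and 5.43 in ALC::TOC1 against 7.58, 7.29 and 7.59 in Col-0 under mock. Both genotypes were higher in LL than in LD, and the gap between them was -1.74 ± 0.08 on average, with no overlap. AT5G15360 averaged -2.002 ± 0.19, AT2G15560 -1.92 ± 0.13, AT3G44070 -1.27 ± 0.12 and AT4G19240 -1.33 ± 0.10, all without overlap between the 12 and 12 arrays.

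The probe set with the greatest difference of the 88, 263174_at, has no gene name in the deposited annotation. In LL it had 5.21, 6.31 and 5.87 in ALC::TOC1 against 11.01, 11.004 and 11.67 in Col-0 with ethanol, and 5.69, 6.41 and 6.01 in ALC::TOC1 against 11.24, 11.33 and 11.26 in Col-0 under mock. In LD the values were 6.49, 6.94 and 6.31 in ALC::TOC1 against 11.82, 11.83 and 11.47 in Col-0 with ethanol, and 6.84, 6.22 and 6.11 in ALC::TOC1 against 12.11, 11.90 and 12.36 in Col-0 under mock. The genotypes were at least 4.06 log2 units apart over all arrays, and the mean difference was -5.38 ± 0.13, or 41.7-fold lower in ALC::TOC1. Next among the unnamed came 248810_at at -3.23 ± 0.14, whose 12 ALC::TOC1 arrays all lay between 2.99 and 3.49, near the low end of the array's scale, against 5.22 to 7.23 in Col-0. For 255437_at the difference was -3.95 in LL and -1.62 in LD, the widest span of the 88 at 2.93. In 15 of the 58 lower probe sets the ALC::TOC1 mean was under 4 log2 units in all 4 settings, where the deposited values give no detection call, so the size of those differences is less certain. Among these were AT3G48640, SBT3.12, AT1G26250, AT5G34920, AT1G58025, AT1G10110 and AT4G19240. In no higher probe set was Col-0 under 4 in all settings, and in 3 it was so in at least 1.

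Among the higher probe sets AT5G28430 had the greatest mean difference. It is annotated as a pseudogene, and its probe set, 246178_s_at, is of the kind that can match more than 1 transcript. In LL it had 8.28, 8.48 and 8.37 in ALC::TOC1 against 5.01, 5.39 and 4.81 in Col-0 with ethanol, and 6.21, 5.90 and 5.85 in ALC::TOC1 against 4.25, 4.49 and 4.74 in Col-0 under mock. In LD it had 6.95, 7.78 and 7.40 in ALC::TOC1 against 5.34, 5.12 and 6.01 in Col-0 with ethanol, and 4.84, 4.95 and 5.03 in ALC::TOC1 against 3.87, 3.99 and 3.55 in Col-0 under mock. ALC::TOC1 was above Col-0 in every setting without overlap, by 3.31, 1.49, 1.89 and 1.14 in LL ethanol, LL mock, LD ethanol and LD mock, for a mean of 1.96 ± 0.11 and a fold of 3.88. Over the 12 and 12 arrays the genotypes overlapped. Pseudogenes were 4 of the 51 members with 1 gene name, AT5G28430 among the higher and AT3G48650, AT5G34920 and AT1G35650 among the lower, and 7.36% of all probe sets with 1 matched gene. Of a list of 4 silenced loci the other gene with a named probe set, AT3G15310, had a mean difference of 0.06 that limma did not call. In LL, AT5G34920 had 2.94, 3.07 and 3.18 in ALC::TOC1 against 3.82, 3.50 and 4.23 in Col-0 with ethanol, and 3.32, 3.25 and 3.10 in ALC::TOC1 against 4.23, 4.32 and 4.64 in Col-0 under mock. Its LD values were 3.09, 3.01 and 2.94 in ALC::TOC1 against 4.87, 4.76 and 5.33 in Col-0 with ethanol, and 3.06, 2.90 and 3.02 in ALC::TOC1 against 5.68, 4.99 and 5.58 in Col-0 under mock. Its ALC::TOC1 arrays stayed at 2.90 to 3.32 throughout, near the low end of the array's scale, while Col-0 was higher in LD than in LL.

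AT2G01090, a hinge protein of the mitochondrial cytochrome bc1 complex, was separate between the genotypes over all arrays. In LL it had 8.29, 8.47 and 8.22 in ALC::TOC1 against 6.45, 6.75 and 6.29 in Col-0 with ethanol, and 8.57, 8.41 and 8.50 in ALC::TOC1 against 7.24, 7.40 and 7.10 in Col-0 under mock. The arrays in LD gave 8.62, 8.71 and 8.60 in ALC::TOC1 against 7.17, 7.41 and 8.05 in Col-0 with ethanol, and 8.80, 8.85 and 8.83 in ALC::TOC1 against 7.16, 8.16 and 7.33 in Col-0 under mock. All 12 ALC::TOC1 arrays lay above all 12 Col-0 arrays, although the third LD ethanol and the second LD mock arrays of Col-0 came closest, and the mean difference was 1.36 ± 0.10, or 2.57-fold.

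Other higher genes are described one by one by the family they belong to. In LL, AT4G19500, of the TIR-NBS-LRR class of immune receptors, had 7.20, 6.90 and 7.29 in ALC::TOC1 against 5.85, 5.90 and 5.44 in Col-0 with ethanol, and 6.997, 6.81 and 6.82 in ALC::TOC1 against 5.90, 6.37 and 5.74 in Col-0 under mock. In LD the values were 7.39, 7.66 and 7.78 in ALC::TOC1 against 6.39, 6.30 and 7.01 in Col-0 with ethanol, and 7.48, 7.44 and 7.43 in ALC::TOC1 against 5.52, 6.71 and 5.58 in Col-0 under mock. The genotypes did not overlap within a setting, and the mean difference was 1.21 ± 0.12. AT4G19820, of the chitinase-like glycosyl hydrolase family, averaged 1.06 ± 0.11 without any overlap, AT3G43740, a leucine-rich repeat protein, 1.06 ± 0.11, and AT1G15180, of the MATE family of efflux carriers, 1.005 ± 0.10. AT3G62950, a CC-type glutaredoxin of the plant-specific class, averaged 1.25 ± 0.15, with 1.54 in LL and 0.96 in LD. Of 26 genes of salicylic acid and defence 3 had a named probe set. AT3G48640 was 1 of the 88, and SAG101 and GRX480, each with a mean difference of -0.06, were not called.

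The alkenal reductase gene AT5G16980, of a family known for reducing reactive carbonyls, differed mainly in LD. In LL it had 5.67, 5.91 and 5.86 in ALC::TOC1 against 5.20, 4.998 and 4.96 in Col-0 with ethanol, and 5.51, 5.67 and 5.39 in ALC::TOC1 against 4.30, 4.69 and 5.46 in Col-0 under mock. In LD it had 7.67, 7.73 and 7.45 in ALC::TOC1 against 5.09, 5.42 and 5.78 in Col-0 with ethanol, and 7.97, 7.58 and 7.78 in ALC::TOC1 against 5.66, 5.45 and 5.43 in Col-0 under mock. In LL mock the third Col-0 array fell within the ALC::TOC1 range, and in the other settings the genotypes were apart. The mean difference was 0.73 in LL and 2.22 in LD. Of 10 family members 8 had a named probe set, and the other 7 had mean differences of -0.09 to 0.39. A neighbour in the gene numbering, AT5G16990, was the single one of the 7 that limma called, at 0.39 ± 0.06 (adjusted p = 6.05e-05), while AER, AT5G16970, was at 0.13 ± 0.06 and not called. Cross-hybridisation among these close paralogs was not tested.

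The remaining named higher genes with a known role encode hydrolases, plastid proteins and an RNA-binding protein. AT5G53050 held the steadiest of all named differences. In LL it had 8.85, 9.23 and 9.04 in ALC::TOC1 against 8.27, 8.53 and 8.03 in Col-0 with ethanol, and 9.02, 8.99 and 8.90 in ALC::TOC1 against 8.03, 8.0 and 8.50 in Col-0 under mock. Its LD values were 8.95, 9.17 and 8.91 in ALC::TOC1 against 8.23, 8.32 and 8.38 in Col-0 with ethanol, and 8.79, 8.60 and 8.69 in ALC::TOC1 against 7.96, 8.14 and 7.56 in Col-0 under mock. No array of one genotype overlapped the other, and its 4 differences spanned 0.10 around 0.77 ± 0.08. The GDSL-type lipase AT2G03980, at 0.87 ± 0.10, spanned 0.15. AT2G21860, related to violaxanthin de-epoxidase of the xanthophyll cycle, averaged 1.06 ± 0.13, and AT3G47070 0.97 ± 0.13. The pentatricopeptide repeat gene AT5G42310, of a family that binds organelle RNA, averaged 1.15 ± 0.15 and lies within 50 kb of scpl42, at 0.83 ± 0.09, with 8 annotated genes between. Between this pair AT5G42280 was higher by 0.47 to 0.81 without meeting the rule, AT5G42290 by -0.01 to 0.29, and AT5G42250 differed in sign among settings. AT1G65490, AT3G44430, AT2G36885, AT3G19515 and AT4G32960, given without a role, averaged 1.31 ± 0.17, 1.12 ± 0.09, 0.86 ± 0.08, 1.03 ± 0.11 and 0.82 ± 0.07.

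The 3 neighbouring pairs were the only members with 1 gene name within 50 kb of each other. Farther apart, AT4G19240 (lower), AT4G19500 (higher) and AT4G19820 (higher) had 35 and 38 annotated genes between them in turn. AT3G43740 (higher), AT3G44070 (lower) and AT3G44430 (higher) had 51 and 68. AT1G57650 and AT1G58025, both lower, had 38 between, and AT5G52750 (lower) and AT5G53050 (higher) 40. How often such pairs arise among all genes was not tested. The higher genes were spread over chromosomes 1 to 5 as 2, 4, 5, 3 and 5, and the lower ones as 11, 3, 6, 4 and 8. Of all probe sets with 1 matched gene, 25.7%, 16.4%, 20.4%, 14.6% and 22.4% lay on these chromosomes. Of the 88 probe sets 8 were of the _s_at kind, 1 higher and 7 lower, and of all probe sets 4.11%.

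The size of the differences varied with the setting more for some probe sets than for others. The median span of the 4 differences was 0.57 in the higher and 0.84 in the lower set. It was under 0.3 in 6 higher and 6 lower probe sets and over 1 in 5 higher and 15 lower ones. The difference was larger in LL than in LD in 17 of 30 higher and 33 of 58 lower probe sets, and larger with ethanol than under mock in 19 and 24. Among named genes AT1G26380 spanned most, at 2.30, followed by AT5G28430 at 2.17, AT3G26460 at 1.99, AT1G57650 at 1.80 and AT3G48640 at 1.66. AT5G53050, AT4G27050, AT2G36885, AT2G03980 and AT3G01830 spanned least, at 0.10 to 0.25. The median difference of the higher set was 1.35 in LL with ethanol, 0.89 in LL mock, 0.91 in LD with ethanol and 1.07 in LD mock. That of the lower set was -1.33 in LL with ethanol, -1.40 in LL mock, -1.14 in LD with ethanol and -1.28 in LD mock. Over all probe sets the median difference was between -0.03 and 0.04 in every setting.

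**Figure D3:**
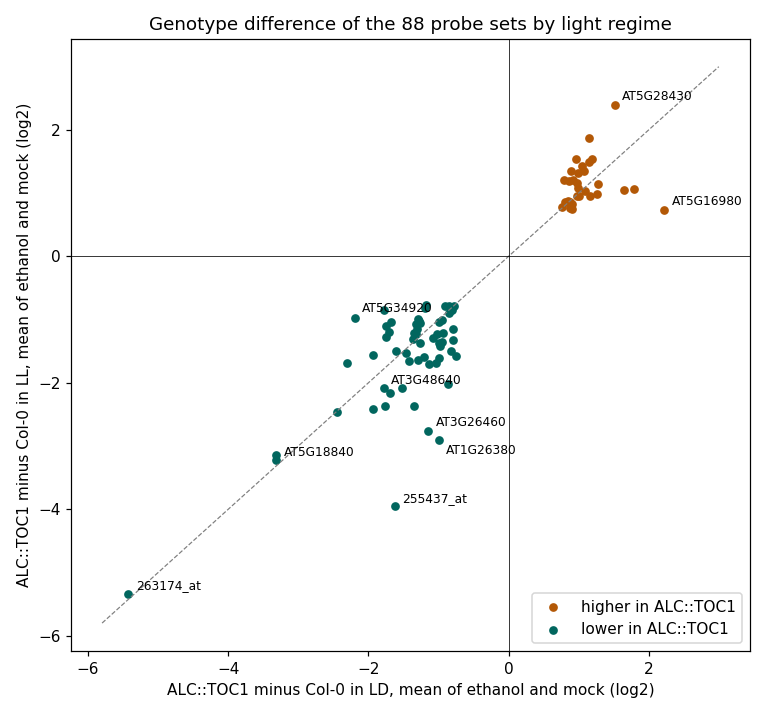
Difference between ALC::TOC1 and Col-0 in LL (vertical axis) against that in LD (horizontal axis), each the mean of ethanol and mock in log2 units, for the 30 higher (orange) and 58 lower (green) probe sets, with the line of equal values dashed. AT5G18840 and 263174_at lie near the line, AT5G16980 differs more in LD, and AT1G26380, AT3G26460 and 255437_at differ more in LL.

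Averaged over the genotypes, ethanol changed part of these genes. Such an average does not show that both genotypes responded alike. In LL, limma called 4 higher-set probe sets up and 4 down with ethanol, averaged over the genotypes, and 4 lower-set ones up and 13 down, where 11.1% of all probe sets were called up and 13.3% down. That is 26.7% of the higher and 29.3% of the lower set, where 24.4% of all probe sets were called. In LD 7 higher-set probe sets were called up and 2 down, or 30% of the set, and 9 lower-set ones up and 12 down, or 36.2%, where 32.8% of all were called, 14% up and 18.8% down. The shares called in either direction were close to the background. Split by direction, the calls leaned down in the lower set in LL and up in the higher set in LD, which was not tested. The median size of the effect was 0.25 and 0.28 in LL and 0.35 and 0.36 in LD for the higher and lower sets, where the median of all probe sets was 0.12 in LL and 0.14 in LD. Called in both regimes were 4 higher-set and 12 lower-set probe sets, and none of them in opposite directions. The ethanol effect itself differed between LL and LD in 1 positive and 1 negative case, both in the lower set, namely THI2.2 and 245038_at, where 5.04% of all probe sets were called, 2.44% positive and 2.6% negative.

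AT5G28430 rose with ethanol by 1.48 ± 0.15 (adjusted p = 2.41e-07) in LL and by 2.06 ± 0.15 (adjusted p = 1.32e-09) in LD. Its mean went from 5.99 under mock to 8.38 with ethanol in ALC::TOC1 in LL, and from 4.49 to 5.07 in Col-0. In LD it went from 4.94 to 7.38 in ALC::TOC1 and from 3.80 to 5.49 in Col-0. AT5G18840 rose too, by 0.98 ± 0.21 (adjusted p = 0.00142) in LL and 1.65 ± 0.21 (adjusted p = 2.91e-06) in LD. In LL, AT2G44370, which encodes a DC1 domain protein, had 5.46, 5.19 and 5.72 in ALC::TOC1 against 7.25, 7.18 and 6.35 in Col-0 with ethanol, and 8.09, 7.93 and 7.75 in ALC::TOC1 against 9.69, 8.85 and 9.32 in Col-0 under mock. The arrays in LD gave 6.13, 5.58 and 5.45 in ALC::TOC1 against 6.66, 6.76 and 6.13 in Col-0 with ethanol, and 8.27, 8.45 and 8.02 in ALC::TOC1 against 9.92, 8.49 and 9.84 in Col-0 under mock. Its ethanol arrays lay below its mock arrays in both genotypes and regimes, and the effect was -2.41 ± 0.22 (adjusted p = 6.63e-08) in LL and -2.71 ± 0.22 (adjusted p = 6.37e-09) in LD. The wax ester synthase family gene AT5G12420 changed by -1.39 ± 0.19 (adjusted p = 1.65e-05) in LL and -1.87 ± 0.19 (adjusted p = 2.04e-07) in LD. AT4G12500 changed by -1.12 ± 0.16 (adjusted p = 2.45e-05) and -1.17 ± 0.16 (adjusted p = 8.25e-06) in the same order. AT3G26460 rose in LD by 0.72 ± 0.17 (adjusted p = 0.00162). AT3G48640 also fell, with -1.06 ± 0.28 (adjusted p = 0.00761) in LL and -1.42 ± 0.28 (adjusted p = 0.000384) in LD. Its mean in LL went from 6.51 under mock to 4.82 with ethanol in Col-0, but only from 3.79 to 3.36 in ALC::TOC1. In LD it went from 6.34 to 4.20 in Col-0 and from 3.84 to 3.14 in ALC::TOC1. Most of its averaged fall thus lay in Col-0, and the ALC::TOC1 values are near the low end of the scale. Averaged over the genotypes, ethanol thus raised the transcript of AT5G18840, which stood lower in ALC::TOC1. By the same average it lowered those of AT2G44370, AT5G12420, AT4G12500 and AT3G48640, which also stood lower there.

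The effect of the light regime, LL minus LD, was tested in the same way. With ethanol, it was positive in 7 and negative in 11 of the 30 higher-set probe sets, or 60%, and positive in 7 and negative in 18 of the 58 lower-set ones, or 43.1%, where 41.5% of all were called, 21.6% positive and 19.9% negative. Under mock it was positive in 8 and negative in 7 higher-set probe sets, or 50%, and positive in 8 and negative in 10 lower-set ones, or 31%, where 37.9% of all were called, 19.4% positive and 18.6% negative. With ethanol the median size of the effect was 0.47 in the higher and 0.38 in the lower set, against 0.18 over all probe sets. Under mock it was 0.33 in the higher and 0.27 in the lower set, against 0.16 over all. Called under both treatments were 12 higher-set and 15 lower-set probe sets, with none in opposite directions.

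The calmodulin-like AT3G01830 was lower in LL in both genotypes. Its values in LL were 5.53, 5.84 and 5.63 in ALC::TOC1 against 6.66, 7.01 and 5.52 in Col-0 with ethanol, and 5.33, 5.38 and 5.05 in ALC::TOC1 against 6.73, 5.40 and 6.13 in Col-0 under mock. In LD the values were 7.52, 7.93 and 7.37 in ALC::TOC1 against 9.04, 8.01 and 7.96 in Col-0 with ethanol, and 7.78, 7.68 and 7.43 in ALC::TOC1 against 8.84, 8.33 and 8.67 in Col-0 under mock. No LL array reached an LD array of the same genotype, and the effect was -1.94 ± 0.23 (adjusted p = 1.09e-06) with ethanol and -2.45 ± 0.23 (adjusted p = 6.69e-08) under mock. Averaged over the genotypes AT5G16980 was lower in LL, with an effect of -1.09 ± 0.14 (adjusted p = 3.14e-06) with ethanol and -1.47 ± 0.14 (adjusted p = 8.84e-08) under mock. With ethanol its mean was 5.81 in LL and 7.62 in LD in ALC::TOC1, but 5.06 and 5.43 in Col-0, where the arrays overlapped. Under mock it was 5.52 and 7.78 in ALC::TOC1 and 4.82 and 5.51 in Col-0. For AT5G52750 the effect was -1.44 ± 0.24 (adjusted p = 5.29e-05) with ethanol and -1.35 ± 0.24 (adjusted p = 0.000132) under mock. AT5G26270, in contrast, was higher in LL by 0.91 ± 0.12 (adjusted p = 3.03e-06) with ethanol and 0.85 ± 0.12 (adjusted p = 9.17e-06) under mock. With ethanol THI2.2 was higher in LL by 1.07 ± 0.16 (adjusted p = 1.53e-05) and AT2G36885 by 0.79 ± 0.12 (adjusted p = 1.57e-05). Under mock AT3G62950 was higher in LL by 1.41 ± 0.22 (adjusted p = 2.34e-05) and AT1G66800 by 0.99 ± 0.16 (adjusted p = 3.71e-05).

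In none of the 4 comparisons were 4 higher-set and 19 lower-set probe sets called. Among them were AT4G19820 and AT3G19515 of the higher set and AT5G15360, AT2G15560, AT3G25150, AT1G58025, AT1G10110, AT1G02300, AT1G57650 and CCOAMT of the lower set. A missing call does not show that ethanol or light left them alone. Called in all 4 were 1 higher-set and 2 lower-set probe sets.

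**Figure D4:**
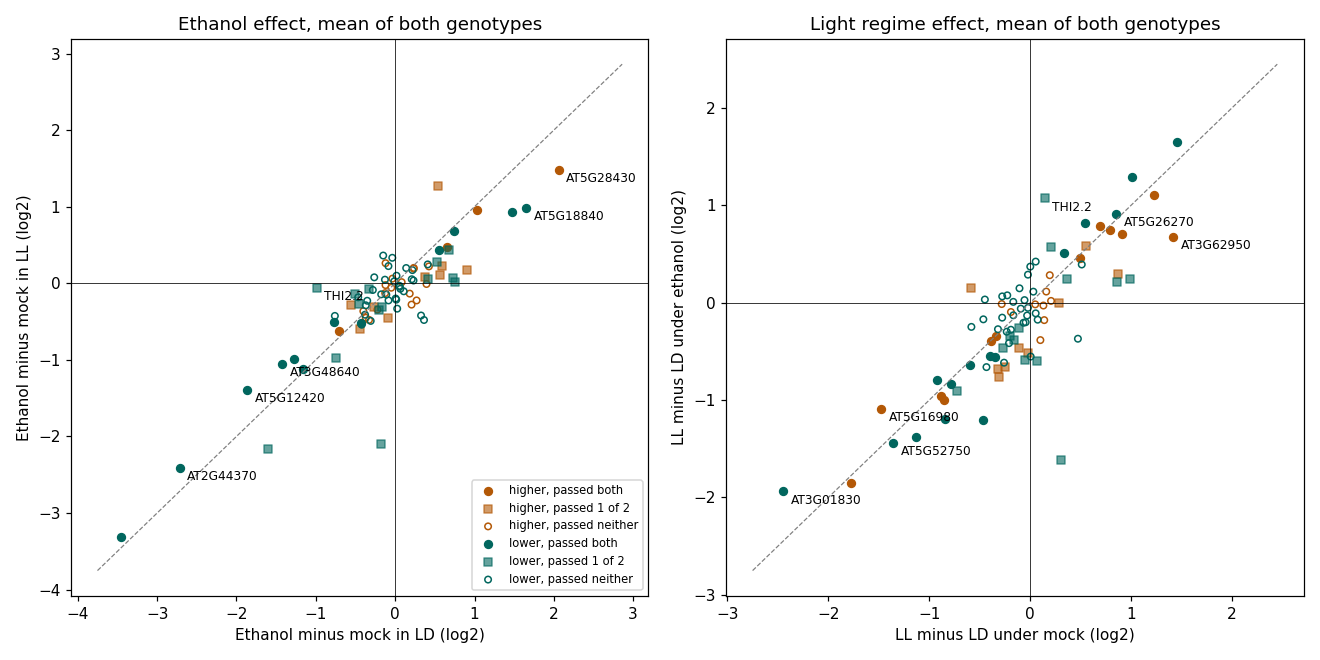
Left, ethanol minus mock in LL (vertical) against LD (horizontal); right, LL minus LD with ethanol (vertical) against mock (horizontal), all in log2 units averaged over both genotypes. Each point is 1 of the 30 higher (orange) or 58 lower (green) probe sets, filled circles passed limma's adjusted p of 0.05 in both comparisons of a panel, squares in 1 and open circles in neither, and the dashed line marks equal effects. AT5G28430 and AT5G18840 are at the upper right of the left panel and AT2G44370 at its lower left.

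The lists could be matched only to the 51 members with 1 gene name. None of these 51 was in the lists for jasmonate and wounding, glucosinolates, anthocyanin and flavonoid, cold response, clock, iron deficiency or core hypoxia, which had 2, 2, 4, 5, 3, 2 and 11 genes with a named probe set. Of the clock list XCT, at -0.32 ± 0.04, and TIC, at -0.25 ± 0.05, were called lower in ALC::TOC1 over the 4 settings, and GI, at -0.10 ± 0.10, was not called. Of the 11 core hypoxia genes 9 were called lower over the 4 settings, where 13.1% of all probe sets were, with a median of -0.69. The lists were chosen with earlier results known and the calls use the rule's genotype differences, so this count is a description only. In all of the 9 except AT5G42200 the mean difference was larger in LL than in LD. AT4G10270, for instance, differed by -1.54 and -2.92 in LL with ethanol and mock but by 0.0044 and 0.30 in LD, so that it failed the requirement on all settings. AT3G10040 had -1.14 and -2.41 in LL but 0.26 and 0.52 in LD, in the same order. For AT5G42200 these were -0.28 and -0.23 in LL and -0.87 and -0.41 in LD. Limma called 1 jasmonate gene higher and 1 gene each of the glucosinolate and cold lists lower, and none of the other 2 lists. The single embryo and seed storage gene with a named probe set differed by -0.05. For phosphate starvation and flower genes no named probe set was analysed here.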

How the data were processed

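The deposited values are log2 expression per probe set, made by the authors with RMA in the package affy, per the submitters' processing notes, which give no version. RMA corrects background, normalises arrays by quantiles and summarises probes. The values carry no detection call, and differences of dim probe sets may be compressed. The genome build is not given in the sources used here, and the array number limits precision.

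Control probe sets, 64 of 22810, were removed, which left 22746 unfiltered ones. Gene names came from the deposited annotation, and neighbours and gene types from RefSeq (TAIR10.1), which matched 13436 of 13513 probe sets with 1 gene. The members were taken by the stated rule at 0.7 log2 units. All 24 arrays were fitted with limma 3.58.1 in R 4.3.3 (lmFit, eBayes), 1 mean per group, 16 residual degrees of freedom. Ethanol and light effects were averaged over both genotypes. With all 24 arrays this leaves them independent of the genotype differences only if both genotypes spread alike. The median group SD was 0.291 in Col-0 against 0.145 in ALC::TOC1 in the higher set. In the lower set it was 0.344 against 0.179. How far the choice of members touched the effects through this was not tested. Benjamini-Hochberg adjusted p-values, two-sided, run over all probe sets with a threshold of 0.05. The same fit gave the mean genotype difference, called only for genes outside the 88. The procedure was tested on simulated data.

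Named were the 2 genes AT5G18840 and AT3G48640, in each set the 15 single-gene members with the greatest smallest difference and the 3 on each side of the threshold, in each tested comparison the 3 members per direction with the smallest adjusted p, neighbours within 50 kb, list members, and the 5 members with the widest and the 5 with the narrowest span. A few further members are named as examples, chosen after their values were seen. The members and the 16 gene lists were chosen with earlier results of these data known. Replicate numbers did not pair the arrays. Alternatives were dropping dim probe sets, another quantile normalisation, median centring, other eBayes settings, fits of 12 arrays, array weights, a replicate block, other thresholds, medians, single arrays left out and, added after the data were seen, the GAPDH covariate and leaving out 2 wild-type arrays.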

Additional observations from a re-analysis of the deposited data

Results flagged for a closer look

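The thionin gene THI2.2, lower in ALC::TOC1 in all 4 settings, differed between the light regimes in its response to ethanol. In LL its values were 6.90, 7.14 and 7.17 in ALC::TOC1 against 7.61, 7.53 and 8.38 in Col-0 with ethanol, and 6.75, 6.82 and 6.997 in ALC::TOC1 against 8.13, 8.10 and 8.30 in Col-0 under mock. In LD they were 5.63, 5.59 and 5.25 in ALC::TOC1 against 6.68, 7.58 and 7.58 in Col-0 with ethanol, and 6.63, 6.87 and 6.26 in ALC::TOC1 against 8.12, 7.88 and 8.47 in Col-0 under mock. With ethanol the arrays lay below the mock arrays in LD in both genotypes, and overlapped the mock arrays in LL. Averaged over the genotypes the ethanol effect was -0.06 in LL and -0.99 in LD. The test of the difference itself gave 0.927 ± 0.228 log2 units (limma, adjusted p = 0.0211), LL minus LD. The LL average joins opposite signs: the mean went from 6.86 under mock to 7.07 with ethanol in ALC::TOC1, and from 8.17 to 7.84 in Col-0. In LD it went from 6.59 to 5.49 in ALC::TOC1 and from 8.16 to 7.28 in Col-0. Such a difference was called for 5.04% of all probe sets, and THI2.2 is the single one among the 51 genes examined for it.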

How the results depend on the processing

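The number of members followed the threshold of the rule: 74 higher and 117 lower probe sets met 0.5 in place of 0.7, and 3 and 21 met 1. The other alternatives gave 20 to 39 higher and 47 to 80 lower probe sets, against 30 and 58. With medians of 3 arrays in place of means 27 and 55 were found, of which 23 and 41 were shared. Leaving out 1 array at a time gave 21 to 35 higher and 47 to 74 lower members, with at least 20 and 46 shared. The fewest came without the first LD ethanol array of Col-0 (21 and 47), and the most without its second LD mock array (35 and 74). That first LD ethanol array had a GAPDH 3'/5' difference of 1.57, against 0.86 and 0.95 in the other arrays of its group. From ubiquitin it was 1.39 against 1.02 and 1.04, and from actin 5.09 against 4.29 and 4.83. The part of RNA quality in this was not tested. Leaving out 1 array also gave 20 to 28 members called for ethanol in LL, 30 to 41 for ethanol in LD, 38 to 47 for light with ethanol and 28 to 39 for light under mock, against 25, 30, 43 and 33. Without the pair of wild-type LD arrays the calls were 28, 40, 46 and 43. All 23 tested effects chosen by the smallest adjusted p kept their direction and their call in 759 of 759 recomputed values. As the strongest calls from the same arrays they were the least likely to change, so this says nothing about the weaker calls, whose counts moved as given above. The same replicate numbers occur in every group but do not pair the arrays: same-numbered arrays correlated at -0.0056 on average in their deviations, with 18 of 84 pairs over 0.1, and 7 of 24 arrays were closest to their own number. With the replicate number as a block the members were 30 and 58 and the calls 26, 32, 43 and 34. Dim probe sets limit what can be said of size: 52 of the 58 lower members passed a filter of 5 log2 units in at least 1 group mean.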

Other observations

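The unnamed probe set 245038_at, lower in ALC::TOC1 with a mean difference of -1.54 log2 units, was the other one of the 88 whose ethanol effect differed between the light regimes, at -1.92 log2 units for LL minus LD (limma, adjusted p = 0.00621). Its gene is not named here and the result is given as a value only.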
